A study of Mus musculus with 23 samples.

Results

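The genes described here encode mitochondrial complex I and its assembly factors in cultured mouse hippocampal cells, with and without a magnetic pull on the growing axons. They are the protein-coding genes whose symbol begins with Nduf. Of 55487 gene identifiers in the count tables, 55141 could be paired with a symbol, 51 of these symbols begin with Nduf, and 46 were kept. The 5 left out (Ndufa11b, Ndufab1-ps, Ndufb1-ps, Ndufb4c and Ndufs6b) are not annotated as protein-coding. The 46 members are 7 core subunits, 9 accessory subunits of the matrix arm, 19 accessory subunits of the membrane arm, the acyl carrier protein Ndufab1, 8 assembly factors whose symbol begins with Ndufaf, and Ndufa4 and Ndufa4l2, which carry the family name but are not complex I subunits. The first 4 of these classes make up 36 subunits.

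Complex I, NADH:ubiquinone oxidoreductase, is the entry point of the respiratory chain in the inner mitochondrial membrane. Its matrix arm takes electrons from NADH and passes them along iron-sulfur clusters to ubiquinone, and its membrane arm pumps protons. The core subunits of the membrane arm are encoded by mitochondrial DNA and those of the matrix arm by nuclear genes. Accessory subunits surround the core, and assembly factors help to build the complex and are absent from the finished enzyme. Neurons depend heavily on oxidative phosphorylation, and mitochondria are carried along axons.

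Hippocampi of C57Bl/6 mice were taken at postnatal day 1, and the dissociated cells were seeded on the soma side of 2-compartment microfluidic chambers. All cultures received magnetic nanoparticles at 5 µg/ml. A gradient of 50 T/m was applied from day 1 to day 6 in vitro in the stretched cultures, and control cultures had a null gradient. RNA of the axonal compartment, labelled a pure axonal preparation, was sequenced in 5 control and 6 stretched libraries. RNA of the soma side, labelled total cell culture, was sequenced in 6 control and 6 stretched libraries. The labels do not say whether replicates are separate cultures, so p-values measure the spread between these libraries, which may be technical.

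Reads assigned to genes ranged from 16369153 to 43048953 per library, so that 3 counts, the floor used here for detection, equal 0.0697 to 0.183 CPM (counts divided by the library's total and multiplied by 1000000). The soma libraries held counts for 22452 to 24575 genes and the axonal libraries for 4263 to 10242. Summed astrocyte markers reached 3838 to 21230 CPM in control axons and 4616 to 12684 CPM in control soma, and no marker of that list of 7 was without counts in either group. Most of this sum was Gfap, at a mean of 12715 CPM in control axons and 6398 CPM in control soma. Aqp4 stood at 31.2 CPM in control axons and 311 CPM in control soma, and S100b was at 0 in 4 of the 5 control axon libraries. Summed neuron markers stood at 1283 to 4385 CPM in control axons and 5700 to 6827 CPM in control soma. Of 7 microglia markers, 5 had no count in any control axon library. Summed over 10 somatodendritic and nuclear transcripts, control axons held 1010 to 2825 CPM and control soma 1853 to 2808 CPM, although 3 to 7 of the 10 were at 0 in each control axon library. The nuclear RNA Malat1 alone was at 508 to 2057 CPM in control axons and 851 to 1624 CPM in control soma. The axonal libraries therefore hold astrocyte and nuclear transcripts despite their label, and the part of these in the axonal values was not tested. By the Y-linked gene Eif2s3y the soma libraries fell into 2 sets of 3 control and 3 stretched libraries each, at 24.7 to 28.7 CPM (control replicates 1, 2 and 3, stretched replicates 1, 2 and 8) and at 5.39 to 13.2 CPM. Control soma replicate 4, in the second set, had the lowest CPM of the 6 control soma libraries for 40 of 45 members tested. The share of all genes for which it was lowest was not counted.

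The promoters of 40 members were found in the RefSeq table, each running from 250 bases before to 50 bases after the transcription start (build GRCm38.p6). The 3 motifs searched are known from promoters of respiratory chain genes and were matched exactly on both strands: CCGGAAG, the core bound by ETS factors such as GABP; GCGCATGCG, bound by NRF1; and AAGATGGCG, bound by YY1. The first occurred in 6 of 40 members (15%) and in 9.93% of 27025 genes with a promoter in the table. The second was found in 4 members (10%) against 1.95% of genes, and the last in 6 members (15%) against 1.64%. Promoters of members had a median GC content of 59.3%, against 52.7% for all promoters in the table. The part of GC content in the motif shares was not tested. The stretches below run from 100 bases before the start to 20 to 38 bases after it, 5′ to 3′ on the gene's strand, with motif matches on either strand in capitals. They show a matrix arm subunit, a membrane arm subunit and a core subunit that were lower in stretched soma, 2 assembly factors, and Ndufa3, which has no match and was higher in control axons than in control soma.
Ndufa11, chr17:56717662-56717791, plus strand: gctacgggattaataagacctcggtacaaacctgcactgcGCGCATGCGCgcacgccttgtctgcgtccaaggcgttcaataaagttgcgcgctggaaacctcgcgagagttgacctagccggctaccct
Ndufs8, chr19:3912745-3912874, minus strand: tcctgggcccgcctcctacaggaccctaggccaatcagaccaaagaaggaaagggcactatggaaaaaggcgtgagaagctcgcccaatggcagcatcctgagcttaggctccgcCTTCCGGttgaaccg
Ndufa9, chr6:126849107-126849244, minus strand: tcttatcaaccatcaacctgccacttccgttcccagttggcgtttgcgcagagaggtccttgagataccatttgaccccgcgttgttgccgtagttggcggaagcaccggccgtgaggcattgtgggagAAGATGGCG
Ndufaf1, chr2:119662805-119662934, minus strand: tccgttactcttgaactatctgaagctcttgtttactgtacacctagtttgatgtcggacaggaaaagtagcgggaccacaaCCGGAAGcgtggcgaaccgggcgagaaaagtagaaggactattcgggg
Ndufaf8, chr11:120098834-120098953, plus strand: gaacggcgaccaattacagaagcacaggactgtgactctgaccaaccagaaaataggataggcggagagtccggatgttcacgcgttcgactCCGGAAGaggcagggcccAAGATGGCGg
Ndufa3, chr7:3617273-3617402, plus strand: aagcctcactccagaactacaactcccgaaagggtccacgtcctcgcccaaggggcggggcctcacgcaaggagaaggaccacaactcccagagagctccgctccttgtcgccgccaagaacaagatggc
In Ndufa11 the NRF1 letters occur on both strands and overlap, which gives 1 run of 10 capitals. In Ndufs8 the ETS core lies on the other strand and so reads CTTCCGG. Ndufaf8 holds both an ETS core and the YY1 letters. A match is a description of the sequence and no evidence of binding.

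In soma libraries the complex I genes were lower in stretched than in control cultures. Of 45 members tested, 36 were lower at an adjusted p under 0.05 (edgeR's quasi-likelihood test with Benjamini-Hochberg adjustment over 15632 genes) and none was higher. Over all genes 25.1% were called, and 13.9% were called lower. The median log2 fold change of the members was −0.43, against −0.03 for all genes tested, and 44 of 45 members had a value below 0. Standard errors ranged from 0.0757 to 0.179. In bulk RNA, fewer cells of a type and less RNA per cell cannot be told apart.

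As a share of all gene counts, the 36 subunits together took 0.524% ± 0.0656 (SD, n = 6) in control soma and 0.396% ± 0.0146 (SD, n = 6) in stretched soma. The control libraries ran from 0.407% over a median of 0.539% to 0.597%, and the stretched libraries from 0.376% over 0.395% to 0.419%. Of the 6 control libraries, 5 lay above all stretched libraries, and replicate 4 lay among the stretched ones. The ratio of the means was 0.755. The 8 assembly factors took 0.0366% ± 0.00386 in control and 0.0302% ± 0.000787 in stretched soma (SD, n = 6 each), with a ratio of 0.825.

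**Figure D1:**
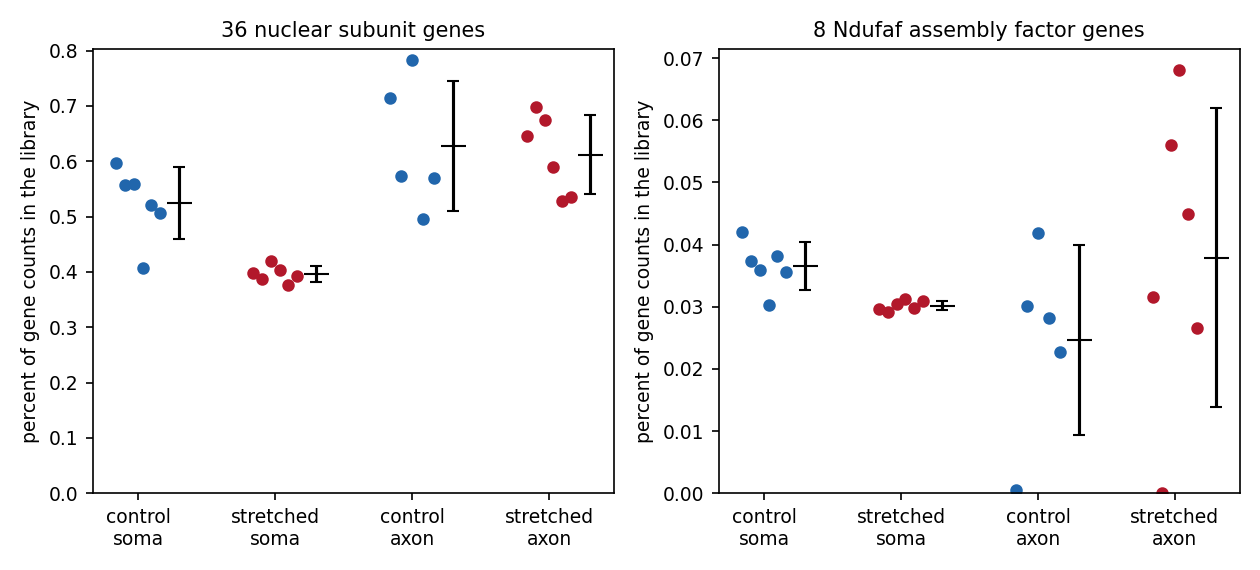
Percent of gene counts in each library taken by the 36 subunit genes (left) and the 8 Ndufaf genes (right). Points are libraries, and the bar beside each group is its mean ± SD. Stretched soma libraries lie at 0.376 to 0.419% for the subunits, under all control soma libraries but 1, while the axonal groups overlap.

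The core subunits of the matrix arm carry the flavin and the iron-sulfur clusters, and 6 of the 7 fell in stretched soma. Ndufs7, which holds the cluster next to ubiquinone (chr10:80249121-80256794, plus strand, GENCODE), showed the lowest value of all members. Its level ran from 130 to 199 CPM with a median of 180 in control soma, and from 96.0 to 128 CPM with a median of 106 in stretched soma. The groups did not overlap. The log2 fold change was −0.74 (SE 0.10, edgeR adjusted p = 0.0029), which is 60.0% of the control level.

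Ndufs3, a subunit of the hydrophilic core, ranged from 128 to 190 CPM (median 162) in control soma and from 106 to 134 CPM (median 113) in stretched soma. The ranges touched only through control replicate 4 and stretched replicate 4, and the log2 fold change was −0.51 (SE 0.10, edgeR adjusted p = 0.0057). Ndufs8, a carrier of iron-sulfur clusters, had a log2 change of −0.43 (SE 0.10, edgeR adjusted p = 0.0103).

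Ndufv1, which binds NADH and flavin, stood at 199 to 253 CPM (median 240) in control soma and at 180 to 193 CPM (median 186) in stretched soma. Its groups did not overlap either, and it fell by 0.36 on the log2 scale (SE 0.08, edgeR adjusted p = 0.00791). Its partner Ndufv2 had the smallest fall of the core subunits called, −0.30 (SE 0.10, edgeR adjusted p = 0.0338). Leaving out 1 library at a time kept the Ndufv2 call in 5 of 12 fits, and the calls of Ndufs7, Ndufs3, Ndufs8 and Ndufv1 in all 12. With offsets for length and GC content in the fit, Ndufs7 was still called, and Ndufs3, Ndufs8, Ndufv1 and Ndufv2 were not.

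Ndufs1, the largest iron-sulfur subunit (chr1:63143596-63176833, minus strand), was the only core subunit not called. Its level was 80.9 to 118 CPM (median 95.0) in control soma and 89.5 to 108 CPM (median 102) in stretched soma. The stretched range lay within the control range, and the log2 fold change was 0.03 (SE 0.09, edgeR adjusted p = 0.853). Its sign was negative in the soma set with high Eif2s3y alone, at −0.04 (SE 0.10). An exon of Ndufs1 overlaps Eef1b2 on the other strand. The strand setting of the counting is not given in the sources used here, so reads of the 2 genes within the overlap cannot be told apart. Exons of 19 of the 46 members overlap another annotated gene, 3 of them on the same strand. Ndufs3, Ndufs6, Ndufa2, Ndufa11 and Ndufb9 are among the 19.

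**Figure D2:**
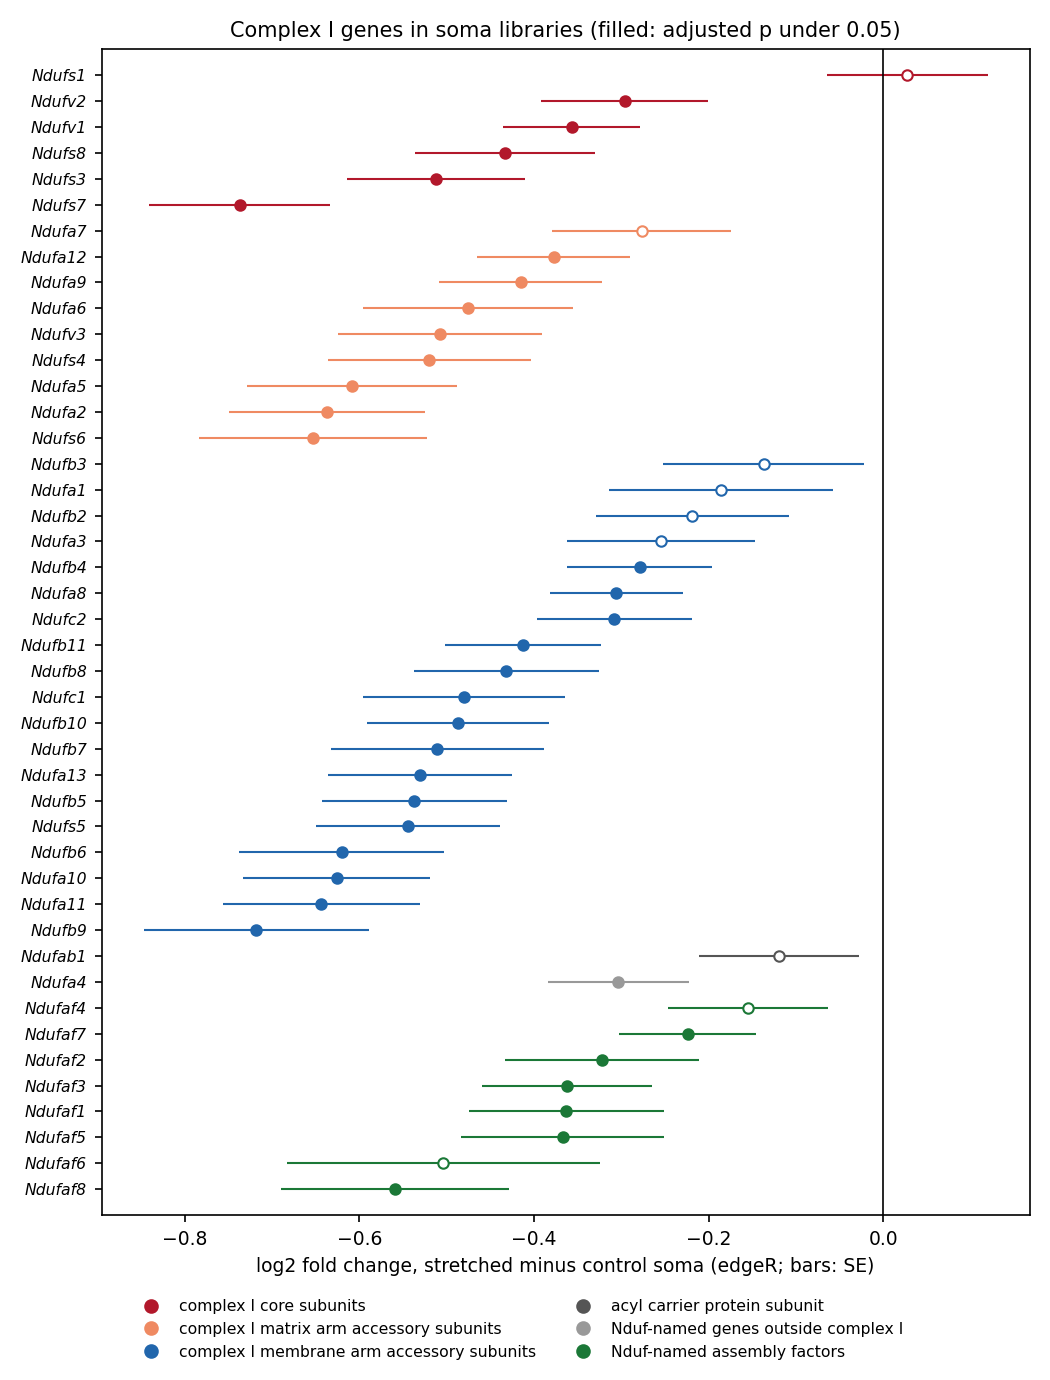
Log2 fold change of 44 of the 45 tested members in soma, stretched minus control, by class, with the standard error as a bar. Filled circles passed an adjusted p of 0.05 in edgeR. Values run from −0.74 (Ndufs7) to 0.03 (Ndufs1), and all but 1 lie left of 0.

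Of the 9 accessory subunits of the matrix arm, 8 fell, with a class median of −0.51. Ndufs6, a zinc-binding subunit needed late in assembly, ran from 72.3 to 144 CPM (median 120) in control soma and from 67.4 to 80.3 CPM (median 75.7) in stretched soma. Only control replicate 4 reached the stretched range. The log2 fold change of Ndufs6 was −0.65 (SE 0.13, edgeR adjusted p = 0.00575). Ndufa2, with a thioredoxin-like fold, dropped from 116 to 198 CPM (median 149) to 91.8 to 111 CPM (median 107), without overlap. Its log2 fold change was −0.64 (SE 0.11, edgeR adjusted p = 0.00424). Ndufa12, at the foot of the arm near the quinone site, had a mean of 234 CPM ± 26.3 there and 185 CPM ± 12.1 in stretched soma (SD, n = 6 each). It fell by 0.38 (SE 0.09, edgeR adjusted p = 0.0096). Ndufa7 was the 1 not called, at −0.28 (SE 0.10, edgeR adjusted p = 0.0584).

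In the membrane arm 15 of 19 accessory subunits fell, with a class median of −0.48. Ndufb9, a subunit with a LYR motif, had control values of 62.9 to 111 CPM (median 96.9) and stretched values of 52.0 to 63.0 CPM (median 58.3). The 2 ranges met only at the library of control replicate 4, and the log2 fold change was −0.72 (SE 0.13, edgeR adjusted p = 0.00432). Ndufa11, which lies in the membrane between complex I and complex III in supercomplexes, ran from 78.7 to 127 CPM (median 104) in control soma and from 64.3 to 81.6 CPM (median 68.0) in stretched soma. The ranges overlapped only through 1 control library, and Ndufa11 fell by 0.64 (SE 0.11, edgeR adjusted p = 0.00413). Ndufa10, a kinase-like subunit on the matrix face of the membrane arm, had 239 to 383 CPM (median 344) in control soma and stood at 199 to 252 CPM (median 220) after stretch. Its log2 fold change was −0.63 (SE 0.11, edgeR adjusted p = 0.0037).

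Ndufb4, a member with copies elsewhere in the genome whose reads may have been split or lost, fell by 0.28 (SE 0.08, edgeR adjusted p = 0.0249). With length and GC offsets its value was 0.03 (SE 0.07, edgeR adjusted p = 0.83). The 4 membrane arm subunits not called were Ndufa3, Ndufb2, Ndufa1 and Ndufb3, with log2 fold changes from −0.25 to −0.14. The means of Ndufa1, Ndufb2 and Ndufb3 over the 12 soma libraries were 34.5, 30.0 and 36.3 CPM.

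The acyl carrier protein Ndufab1, which also serves mitochondrial fatty acid synthesis, had 51.1 to 72.4 CPM (median 65.5) in control soma and 55.6 to 67.3 CPM (median 60.1) in stretched soma. The stretched range lay within the control range, and the log2 fold change was −0.12 (SE 0.09, edgeR adjusted p = 0.351). Ndufa4, a subunit of cytochrome c oxidase, fell by 0.30 (SE 0.08, edgeR adjusted p = 0.016). Its paralogue Ndufa4l2 was at 0.147 to 0.867 CPM in control soma and 0.223 to 0.604 CPM in stretched soma, and was too low to be tested.

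Among the Ndufaf assembly factors 6 of 8 fell in stretched soma, with a class median of −0.36. Ndufaf8 (chr11:120098928-120100705, plus strand), which stabilizes Ndufaf5, had the largest fall of those called. It ranged from 15.7 to 24.8 CPM (median 19.5) in control soma and from 11.6 to 15.2 CPM (median 13.8) in stretched soma, without overlap. The log2 fold change was −0.56 (SE 0.13, edgeR adjusted p = 0.00985). Ndufaf5, the arginine hydroxylase that modifies Ndufs7, fell by 0.37 (SE 0.12, edgeR adjusted p = 0.0316).

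Ndufaf1, of the membrane arm assembly complex, fell by 0.36 (SE 0.11, edgeR adjusted p = 0.0286). Ndufaf3, which acts with Ndufaf4 early in assembly, had a log2 change of −0.36 (SE 0.10, edgeR adjusted p = 0.0165). An exon of Ndufaf3 overlaps Impdh2 on the other strand. Ndufaf2, a paralogue of Ndufa12 that holds its place during assembly, fell by 0.32 (SE 0.11, edgeR adjusted p = 0.0446). Ndufaf7, an arginine methyltransferase, fell by 0.22 (SE 0.08, edgeR adjusted p = 0.0474).

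The 2 assembly factors not called were Ndufaf6, at −0.50 (SE 0.18, edgeR adjusted p = 0.0503), and Ndufaf4, at −0.15 (SE 0.09, edgeR adjusted p = 0.225). When 1 library at a time was left out, Ndufaf8 and Ndufaf3 stayed called in all 12 fits, Ndufaf1 in 8, Ndufaf5 in 4, and Ndufaf2 and Ndufaf7 in 2 each. Ndufaf6 was called in 2 of these 12 fits. With length and GC offsets, 5 of the 6 calls were lost, those of Ndufaf1, Ndufaf2, Ndufaf3, Ndufaf5 and Ndufaf8.

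The size of the soma result moved with 1 library. Without control soma replicate 4, 39 of 45 members were called lower, against a background of 20.1% of genes, and the members' median was −0.51. With all libraries, 5 members, among them Ndufa2, Ndufaf8, Ndufs7 and Ndufv1, had every stretched value under every control value, as did 2.27% of all genes. Without control replicate 4 this held for 34 members and 9.53% of genes. Leaving out a library can only raise such a count, and this library was singled out above for its low member values. The counts without it are therefore descriptions. Within the soma set with high Eif2s3y alone, 37 of 46 members tested were called lower (background 12.7%; median −0.46). In the set with low Eif2s3y, none of 45 was called and 0% of all genes were (members' median −0.24, with 17 members at an unadjusted p under 0.05). Without control replicate 4, an alternative chosen after seeing the data, 28 members were called lower in that set (background 14.2%; median −0.37).

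Transcript length moved with the soma result. Length here is that of a gene's longest annotated protein-coding transcript, or else of its longest transcript. Complex I transcripts are short, with a median of 994 bases against 3074 bases for all genes tested, and 38 of the 45 members lay in the shortest 25% of genes. In that 25% the median log2 fold change of all genes was −0.32, and 31.3% of them were called lower. The members in it had a median of −0.46. Across 15619 genes, Spearman's rho of fold change with length was 0.48, and across the members with a value it was 0.21. Genes of 1 library share its depth and chemistry, so these are descriptions. With offsets for length and GC content in the fit, 17 of 45 members were called lower, the background was 8.6%, and the members' median was −0.19. Of the 36 members called in the fit without offsets, 15 were among those 17. Ndufs6, Ndufa2, Ndufb9, Ndufa11 and Ndufa10 were among the 15, and Ndufa12 and Ndufa4 were not. A replicate block added to the offsets left 5 of 45 members called lower (background 6.42%, members' median −0.18).

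**Figure D3:**
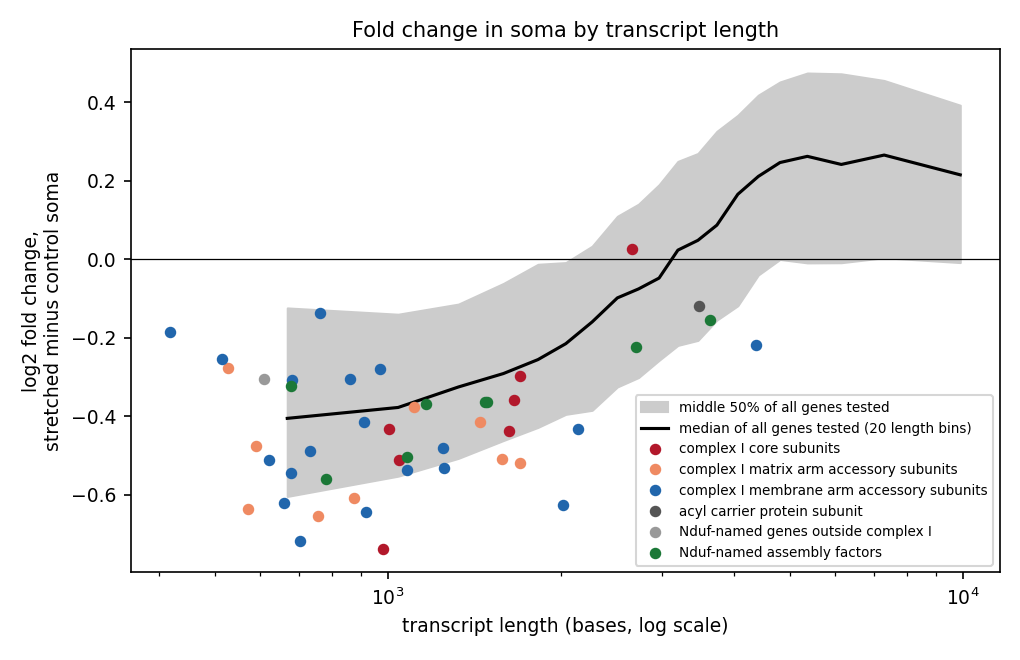
Log2 fold change in soma against transcript length on a log scale. Points are complex I members by class, the line is the median of all tested genes in 20 length bins and the band their middle 50%. Most members lie at the short end, where the line is below 0, and more of them lie under the line than above it.

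Other genes of the same machinery were read from lists, and those named here were picked for passing the test. Of 38 nuclear subunits of complexes II to V, 31 fell and 1 rose in stretched soma, with a median of −0.44. The riser was the complex II subunit Sdhd, with a log2 change of 0.38 (SE 0.11, edgeR adjusted p = 0.0226). None of 6 mitochondrially encoded complex I subunits tested was called, and their median was 0.08. Of 10 further assembly factors outside the Nduf names, 3 fell: Dmac2, at −0.53 (SE 0.11, edgeR adjusted p = 0.0071), Ecsit and Acad9. The other 7 were not called. Of 14 regulators of mitochondrial biogenesis, Esrra fell (log2 fold change −0.69, SE 0.20, edgeR adjusted p = 0.0203), Gabpa rose (0.57, SE 0.16, edgeR adjusted p = 0.0194) and Pprc1 rose (0.52, SE 0.15, edgeR adjusted p = 0.0209). Nrf1 and Yy1, whose motifs were searched above, were at 0.11 (SE 0.12) and −0.24 (SE 0.16) and were not called.

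Markers of cell types also moved in soma. Of 8 neuron markers 4 fell and 1 rose, and their summed level was 5700 to 6827 CPM in control and 5417 to 6112 CPM in stretched soma. None of 7 astrocyte markers was called. Of 7 microglia markers 2 fell, with sums of 38.1 to 75.7 CPM in control and 27.9 to 35.9 CPM in stretched soma. Of 6 oligodendrocyte lineage markers tested 1 rose, with sums of 42.7 to 74.1 CPM and 39.8 to 57.3 CPM. The part of these shifts in the complex I result was not tested.

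The order of the members by level changed little between the soma groups. Spearman's rho of mean CPM between control and stretched soma was 0.96 over the 36 subunits. Per kilobase of transcript, Ndufa4 had the highest level in control soma, 567 ± 60.9 CPM per kb (SD, n = 6). It was followed by Ndufb10 at 297 ± 43.2, Ndufc2 at 282 ± 31.3, Ndufa2 at 277 ± 53.6 and Ndufb7 at 261 ± 44.7 CPM per kb (SD, n = 6 each). These 4 subunits lay within their spread of one another. The core subunits had a median of 150 CPM per kb, and Ndufs1 was the lowest of them. The assembly factors had a median of 29.9 CPM per kb and reached 60.8. These values rest on the longest annotated protein-coding transcript of each gene. Ndufb2, with 4371 bases by that choice, had 7.30 CPM per kb.

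In axons, stretch changed no complex I gene past the threshold. None of 41 members tested was called by edgeR, none had an unadjusted p under 0.05, and 0% of 4947 genes were called (46 at an unadjusted p under 0.05). DESeq2 also called no member. The standard errors, 0.553 to 2.97 on the log2 scale, were several times those in soma, so falls of the size seen there were not detectable. The edgeR estimate of the coefficient of variation between replicates was 2.39 in this comparison and 0.24 in soma.

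The 36 subunits took 0.627% ± 0.117 (SD, n = 5) of counts in control axons and 0.612% ± 0.0719 (SD, n = 6) in stretched axons. Control replicates 1, 2, 3, 5 and 7 were at 0.715%, 0.574%, 0.782%, 0.495% and 0.570%, and stretched libraries ran from 0.527% over a median of 0.618% to 0.697%. The stretched range lay within the control range.

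The 3 members with the smallest unadjusted p were Ndufs7, Ndufa8 and Ndufa3. Ndufs7 had 60.8, 122, 384, 102 and 117 CPM in control axons and 166 to 552 CPM (median 272) in stretched axons. Of the 5 control libraries, 4 lay under all stretched ones, and replicate 3 lay within their range. The log2 fold change was 1.05 (SE 1.05, edgeR adjusted p = 1). Ndufa8, a subunit of the intermembrane space side, was at 0.60 (SE 0.73) and Ndufa3 at −0.82 (SE 1.10), both with an edgeR adjusted p of 1.

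**Figure D4:**
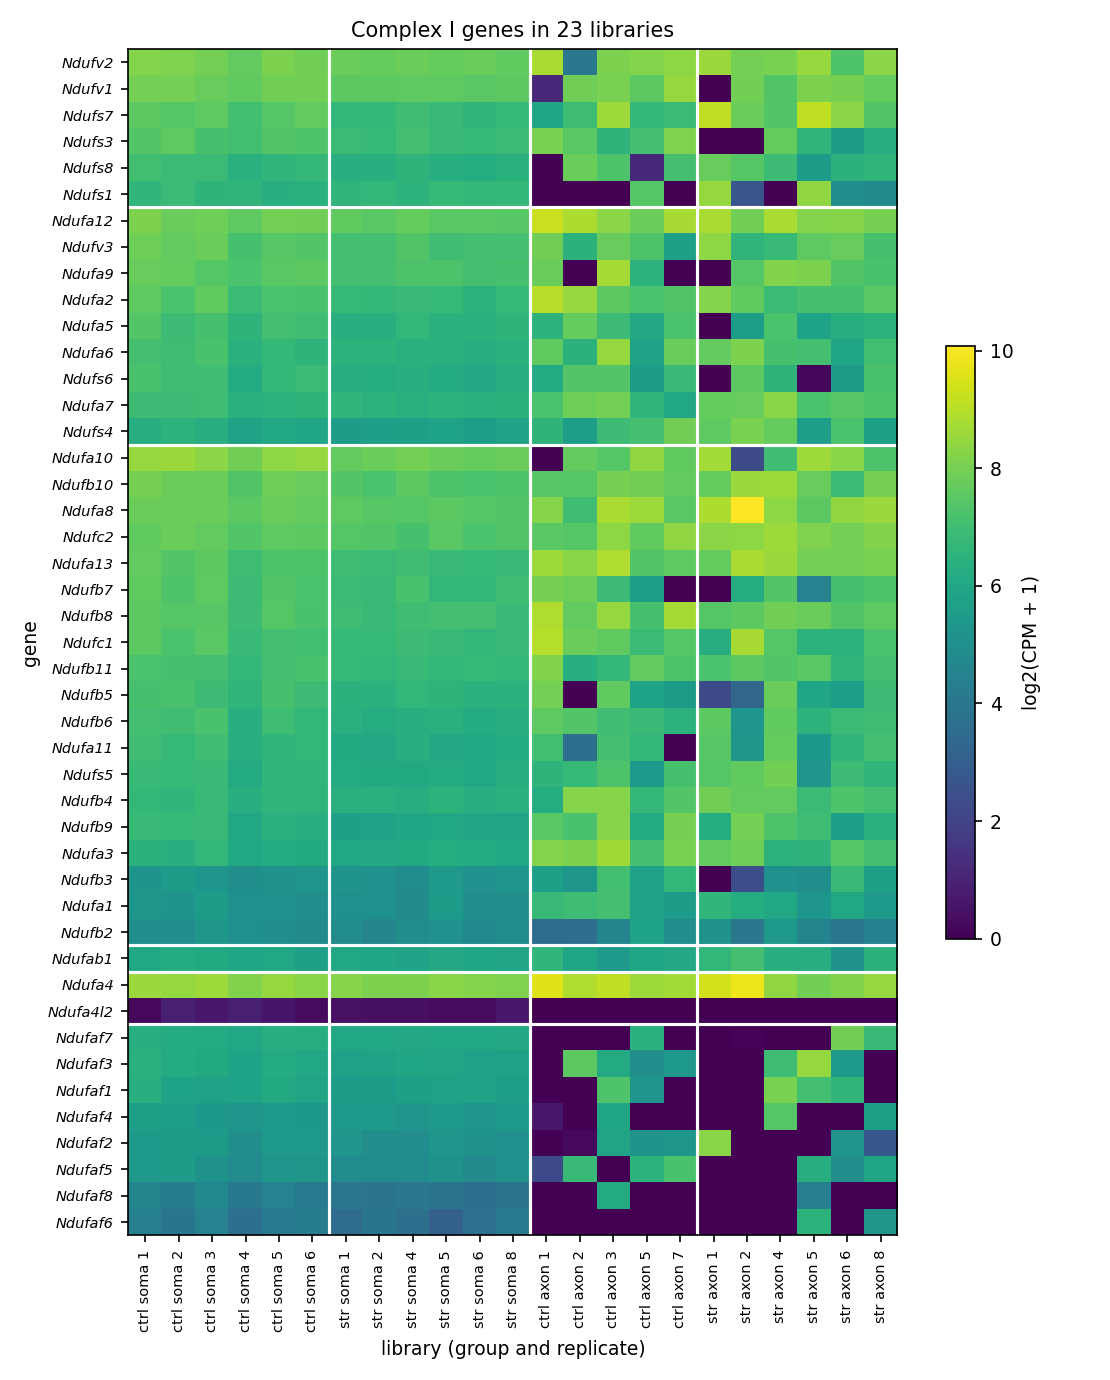
Level of 45 of the 46 members in the 23 libraries as log2(CPM + 1), ordered by class and by level in control soma; ctrl is control and str is stretched. Soma columns are even within a row, while axonal columns alternate between high values and 0, above all in the Ndufaf rows.

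Axonal libraries held most subunits and few assembly factors. With detection set at more than 3 counts, 31 to 36 of the 36 subunits were detected in each control axon library and 28 to 36 in each stretched one. The assembly factors came to 2 to 5 of 8 in control and 0 to 5 of 8 in stretched axons. Over the 11 axonal libraries, 23 of 36 subunits and no assembly factor were detected in all. As a share of gene and library pairs, without regard to soma level, subunits were detected in 94.4% and assembly factors in 40.9%. All 36 subunits and all 8 assembly factors were detected in each of the 12 soma libraries.

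Over all genes, detection in axons was more frequent at higher soma levels, so members were set beside genes of like soma level. At 10 to 50 CPM in soma, 30.1% of gene and library pairs of all genes were detected, and 41.8% of those of short genes. The 3 subunits in that range reached 97.0% and the 5 assembly factors 38.2%. At 50 to 100 CPM the values were 50.5% for all genes, 68.8% for short genes, 94.4% for 13 subunits and 45.5% for 3 assembly factors. At 100 to 200 CPM they were 65.6% for all genes, 83.9% for short genes and 94.5% for 15 subunits. At 200 to 500 CPM they were 79.0% for all genes, 93.8% for short genes and 92.7% for 5 subunits. Subunits thus did not lie above short genes at 200 to 500 CPM. The assembly factors lay between all genes and short genes at 10 to 50 CPM, and under both at 50 to 100 CPM. Their low detection was thus near that of genes of like soma level. No assembly factor had a soma level of 100 to 500 CPM. No test was made of these shares, since members share libraries.

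**Figure D5:**
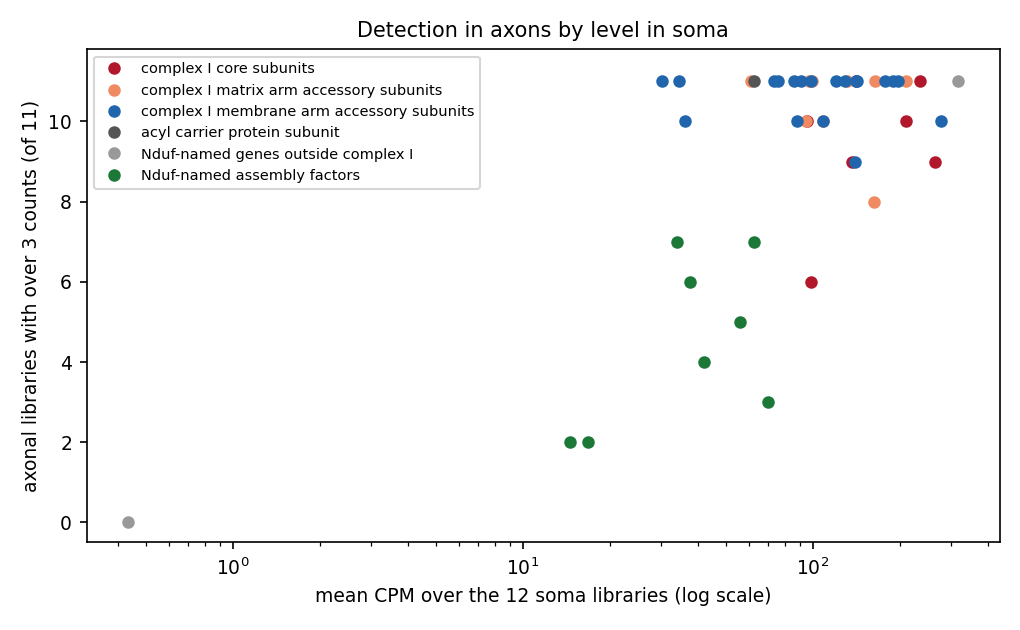
Number of the 11 axonal libraries in which a member exceeded 3 counts, against its mean CPM over the 12 soma libraries on a log scale. Assembly factors lie between 2 and 7 libraries, and all subunits but Ndufs1 (6 libraries) lie at 8 or more.

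Ndufs1 was the subunit missed most often in axons. It was at 0 in control axon replicates 1, 2, 3 and 7, at 170 CPM in replicate 5, and at 0 to 357 CPM (median 28.4) in stretched axons. Replicate 5 was also the control axon library with the most genes counted, 10242 of them. Ndufa9, which sits by the ubiquinone channel, was detected in 8 axonal libraries. Among the assembly factors, Ndufaf7 was at 0 in 4 control axon libraries and at 86.3 CPM in replicate 5. Ndufaf4 was at 60.5 CPM in control axon replicate 3 and at most 0.556 CPM in the other 4.

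Axons and soma of control cultures differed in 2 of 45 members tested (edgeR), while 35.3% of 14728 genes were called, 34.4% lower and 0.856% higher in axons. Ndufaf6 (chr4:11051045-11076205, minus strand) had no count in any of the 5 control axon libraries, and 11.99 to 21.2 CPM (median 17.4) in control soma. It was called lower in axons (edgeR adjusted p = 2.45e-05). Its control soma mean, 16.9 CPM, was 133 times the mean floor of 3 counts per control axon library. That ratio covers counting error only. Control axon libraries could hold a gene at either 0 or a high level, as with Ndufs1 at 0 or 170 CPM, so zeros set no minimum fold difference. In stretched axons Ndufaf6 had 91.1 CPM in replicate 5, 39.2 CPM in replicate 8 and 0 in the other 4 libraries.

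Ndufa3, a small membrane arm subunit (chr7:3617373-3620327, plus strand), was higher in axons. It had 292, 270, 401, 134 and 267 CPM in control axons and 62.8 to 102 CPM (median 75.6) in control soma. All axonal values lay above all soma values. The log2 fold change was 1.51 (SE 0.42, edgeR adjusted p = 0.0129), and the call held in all 11 fits that left out 1 library. Without the filter on low counts Ndufa3 was not called. An exon of Ndufa3 overlaps Tfpt on the other strand.

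The median log2 fold change of the members was −0.24 and that of all genes −1.40. Without composition scaling, by library size only, the medians were 0.03 and −1.27, so that the sign of the members' median depended on the scaling. By class under the first scaling, the medians were −0.38 for core subunits, 0.33 for matrix arm accessory subunits, 0.08 for membrane arm accessory subunits and −0.81 for assembly factors. Standard errors ran from 0.235 to 2.38. Of 5 mitochondrially encoded complex I subunits tested, 3 were higher in axons, and 8 of 38 nuclear subunits of complexes II to V were higher.

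In stretched cultures none of 45 members differed between axon and soma in edgeR, and 3 had an unadjusted p under 0.05, while 29.3% of 14466 genes were called. These 3 were Ndufs7, Ndufa13 and Ndufa8. Ndufs7 was at 166 to 552 CPM (median 272) in stretched axons and 96.0 to 128 CPM in stretched soma, without overlap (log2 fold change 1.09, SE 0.39, edgeR adjusted p = 0.0534). Ndufa13, a membrane arm subunit also known as GRIM-19, had 205 to 442 CPM (median 260) in axons and 107 to 128 CPM (median 115) in soma, again without overlap. Its log2 fold change was 0.87 (SE 0.31, edgeR adjusted p = 0.0593). Ndufa8 was at 0.86 (SE 0.37, edgeR adjusted p = 0.131).

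These 3 values depended on scaling. By library size only, 9 members were called higher in axons (background 1.95%), among them Ndufs7, Ndufa13 and Ndufa8, and the median of all genes moved from −1.13 to −0.73. DESeq2 called 7 members, all higher (background 2% of genes). limma voom called 10, of which 9 were lower, 7 of them assembly factors. By limma voom 69.2% of all 14466 genes were called lower and 0.491% higher.

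Whether stretch acted differently in axons and soma was tested as the difference of the log2 fold changes of the 2 separate edgeR fits. This difference was divided by its combined standard error and set against a t distribution. None of 41 members was called by this t test after Benjamini-Hochberg adjustment, and 0% of 4882 genes were. At an unadjusted p under 0.05 there were 59 genes and no member. Ndufs7 had the smallest unadjusted p, with a difference of 1.79 (SE 1.05, t test unadjusted p = 0.109). Ndufa8 followed at 0.90 (SE 0.74) and Ndufb10 at 0.78 (SE 1.01). The fall seen in soma was thus not shown to differ from the change in axons, whose standard errors for the difference ran from 0.559 to 2.97.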

How the data were processed

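Poly(A) RNA of 23 libraries was sequenced as paired-end reads. The authors deposited raw counts per gene; per the submitters' processing notes the tools were FastQC 0.11.9, MultiQC 1.12, fastp 0.20.1, STAR 2.7.08a and HTSeq 0.13.5 with build mm10. The annotation release, the strand setting and the use of molecular identifiers are not given in the sources used here. The 5 closing lines of unassigned reads in each file (14.2 to 24.4% of reads) were left out. Identifiers were paired with symbols through GENCODE vM21.

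Counts were tested with edgeR 4.0.16 (quasi-likelihood, TMM scaling, its default filter on low counts, only the groups compared in a fit) in R 4.3.3, with Benjamini-Hochberg adjustment over all genes and a threshold of 0.05. The fit was also run on simulated counts. In the axon-soma case these had a far smaller spread than the real libraries, so the simulation does not bear on the axon-soma calls. Standard errors given with edgeR values are the size of the log2 fold change divided by the root of the test's F statistic. The combined standard error of a difference rests on these derived values. DESeq2 1.42.0 and limma 3.58.1 were alternatives. Detection means more than 3 counts; floors and shares cover counting error only. CPM values are unscaled. The members and gene lists were chosen with earlier results of these data known.

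Genes named are the core subunits, the Ndufaf genes, the 5 lowest and 5 highest called per comparison or else the 3 with the smallest p, the 5 subunits with the highest CPM in control soma, Ndufa4, Ndufa4l2, Ndufab1 and Ndufb4. Others were named after their values were seen. A core subunit enters the counts, and its own values are not reported here. Alternatives were other scalings, no filter, other tools, a replicate block, length and GC offsets, the Eif2s3y sets, 1 fit over 4 groups, and leaving out each library.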

Additional observations from a re-analysis of the deposited data

Results flagged for a closer look

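Values of the named genes and their summed shares made 132 groups. In 13 of these, the highest or lowest library stood apart from the others by Dixon's criterion at the 95% level. For independent, normally distributed values about 1 group in 20 would be flagged. Axonal groups with 0 in most libraries are not such values, so the 13 cannot be set against that rate. Of the 13, 11 were axonal. In control axons, replicate 3 was the high library for Ndufs7 (384 CPM against 60.8 to 122 in the others), Ndufaf1 (158 CPM against 0 to 37.5), Ndufaf4 (60.5 CPM against 0 to 0.556) and Ndufaf8 (71.6 CPM against 0). Replicate 5, the deepest library, was the high one for Ndufs1 (170 CPM against 0) and Ndufaf7 (86.3 CPM against 0).

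In stretched axons, Ndufa8 reached 1084 CPM in replicate 2 against 188 to 464 CPM in the others. Ndufaf2 was at 315.5 CPM in replicate 1 against 0 to 37.2 CPM, Ndufaf4 at 171 CPM in replicate 4 against 0 to 50.5 CPM, and Ndufaf3 at 354 CPM in replicate 5 against 0 to 124 CPM. Ndufaf8 was at 19.5 CPM in that library and at 0 in the other 5.

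In soma, Ndufaf2 was low in control replicate 4, at 30.3 CPM against 42.1 to 45.1 CPM, and Ndufs3 was high in stretched replicate 4, at 134 CPM against 106 to 116 CPM. The cause of these values was not tested.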

How the results depend on the processing

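In soma, members called lower numbered 36, and 28 to 39 under the alternatives, with the following exceptions. Length and GC offsets gave 17 (2161 genes called against 3929). A replicate block with these offsets gave 5 (1796 genes called, 6.42% of all genes called lower). In 1 fit over all 4 groups and in the Eif2s3y-low set alone, 0 members and 0 genes were called. Leaving out 1 library gave 29 to 39 members and 2666 to 6072 genes, the highest values without control soma replicate 4. Ndufs1 turned to −0.0378 in the Eif2s3y-high set, and ran from −0.001 (without control soma replicate 6) to 0.0972 with 1 library left out. Ndufab1 turned to 0.0064 in the Eif2s3y-low set and 0.0058 there without control replicate 4. Ndufb4 turned to 0.0261 with length and GC offsets and 0.056 with block and offsets. Pairing was checked on deviations of log2(CPM + 1) from each gene's group mean, not on the levels themselves. These deviations correlated at 0.0752 to 0.285 (mean 0.211) between same-numbered soma libraries, with 4 of 5 pairs over 0.1. Both libraries of each such pair lay in the same Eif2s3y set, so number and set cannot be told apart there. Soma pairs of unlike number, within and across the sets, had correlations of −0.454 to 0.398 (mean −0.0336), with 11 of 31 over 0.1. For same-numbered axonal libraries the deviations correlated at 0.0321 to 0.0463. A correlation over 0.1 was asked of every pair, so the numbers were not taken as pairs in the main fits. With the replicate block 28 soma members were called (Ndufa4, Ndufaf2, Ndufaf3, Ndufaf5, Ndufaf7, Ndufb4, Ndufb8 and Ndufv2 were lost), and 1 in each axon-soma comparison; Ndufa3 lost its control axon call there and without a filter. Stretch in axons and the difference of effects gave 0 members, except 1 (Ndufaf6) in 1 fit over all 4 groups, which called 3870 and 3509 genes; leaving out any library gave 0. DESeq2 called 18 genes and limma voom 10 in stretched axons. Between control axon and soma, 2 members became 5 with DESeq2, 9 with limma voom, 3 in 1 fit over 4 groups and 2 to 5 without 1 library. The 5196 genes called became 10714 without a filter, 9798 with limma voom and 8151 without control axon replicate 5. In stretched cultures, 0 became 9 by library size only, 2 with DESeq2 size factors, 7 with DESeq2, 10 with limma voom, 1 without a filter, 1 in 1 fit over 4 groups and 0 to 4 without 1 library. The 4234 genes became 10931, 10084 and 7687 without a filter, with limma voom and with the block, and 6499 without stretched axon replicate 8. The subunits' share on TMM-scaled counts was 0.600% in control soma, 0.479% in stretched soma and 0.512% in stretched axons. The causes were not tested. Depth sets a detection floor of 0.0697 to 0.183 CPM per library.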

Other observations

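The gene Ndufb1-ps, left out of the members because GENCODE vM21 annotates it as a non-coding RNA, was counted in all 23 libraries; the RefSeq table lists a protein-coding Ndufb1. It stood at 44.4 CPM ± 6.07 in control soma and 44.7 CPM ± 5.66 in stretched soma (SD, n = 6 each), with a log2 change of −0.03 (SE 0.10, edgeR adjusted p = 0.853). In control axons it was at 135 CPM ± 48.9 (SD, n = 5) and in stretched axons at 86.3 CPM ± 58.3 (SD, n = 6). Between control axons and soma the log2 fold change was 1.31 (SE 0.52, edgeR adjusted p = 0.0821), and in stretched cultures it was 0.40 (SE 0.53, edgeR adjusted p = 0.812).

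The order of subunits by mean CPM was less alike between compartments than between the soma groups: Spearman's rho over the 36 subunits was 0.64 between control soma and control axons, 0.71 between stretched soma and stretched axons, and 0.75 between the axonal groups. The points share libraries and transcript lengths.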
